A study of Mus musculus with 5 samples.

Results

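The gene levels of CD4+ T cells cultured with IL-4, TGF-β and IL-1β (Th9 IL-4+TGF-β+IL-1β, called the combined Th9 culture here) were compared with those of Th2 cells. There was 1 array (Affymetrix Mouse Gene 2.0 ST) for each culture, and the comparison takes 2 of the 5 arrays of the series. It covers the 23521 of 41345 transcript clusters (groups of probes for a transcript) that carry 1 gene symbol, or 22180 genes with 1 cluster kept for each, the brightest over the arrays. According to the Methods, naive CD4+ CD62L+ T cells were taken from the spleens of TRP-1 mice (6–8 weeks old in the animal experiments) and stimulated with TRP-1 peptide on irradiated, T cell-depleted splenic antigen-presenting cells of C57BL/6 mice for 3 days. Both media held 10 ng/ml of IL-4 and 10 µg/ml of antibody to IFN-γ. The combined Th9 medium also held 1 ng/ml of TGF-β and 10 ng/ml of IL-1β, and the Th2 medium 100 U/ml of IL-2. The contrast therefore changes 3 agents at once, and whether a difference goes with TGF-β, with IL-1β or with the lack of added IL-2 cannot be told apart from these 2 arrays alone. The other 3 arrays are given beside them. These are classic Th9 cells (IL-4 and TGF-β), Th9 cells made with IL-4 and IL-1β, both with the same antibody and without added IL-2, and Th1 cells (the same IL-2, 5 ng/ml of IL-12 and 10 µg/ml of antibody to IL-4, with no IL-4).

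As a model, the cultures hold T cells with a fixed transgenic receptor for a melanocyte protein, from a strain mutant for *Rag1*, which lymphocytes need to assemble antibody and T cell receptor genes. The antigen-presenting cells came from mice with intact *Rag1*, and the Methods name no step that removed them before RNA was taken. With 1 array a side there is no replicate check, and no difference below was tested. Values are log2 RMA values of the arrays, and a difference is the combined Th9 array minus the Th2 array on that scale, where 1 is 2-fold. A level on this scale depends on the probes, so levels are compared between arrays and not between genes. Olfactory receptors are not expected in T cells, so their 1108 transcripts served as a measure of dim signals. Their differences had an SD of 0.243. In either direction, 1 of them reached 2-fold and 26 reached 1.5-fold, the threshold used for the gene lists below. Dim signals alone can thus pass that threshold.

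Th9 and Th2 cells are both made from naive CD4+ T cells with IL-4, which acts through STAT6. Adding TGF-β, which signals through SMAD proteins, turns the cells toward IL-9, a cytokine that acts on mast cells, epithelial cells and T cells. IL-1β signals through MyD88 to NF-κB and further raises IL-9 in Th9 cultures. Th2 cells are known for IL-4, IL-5 and IL-13 and for the transcription factor GATA-3.

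Across the 22180 genes the arrays were alike, with a median difference of 0.01, an SD of 0.231 and a Pearson correlation of 0.995 across genes, which share the normalization and are not independent replicates. Of the 23521 transcript clusters, 23 (0.0978%) reached 2-fold on the higher side in the combined Th9 array and 72 (0.306%) on the lower side. The 23 higher clusters are 23 genes and the 72 lower ones 63 genes. Past 4-fold there were 3 genes on the higher side, *Il9*, *Ermn* and *Il21*, and 6 on the lower side. The plot of the gene levels of both arrays shows that most genes lie close to the diagonal and that the genes far from it are few on either side. The SD of the differences depended little on the level. It was 0.225 for the 7650 genes with a mean level below 5 and 0.206 for the 3748 genes at 9 or above. The typical difference was larger in dim genes, with a median absolute difference of 0.132 in the former and 0.080 in the latter.

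**Figure D1:**
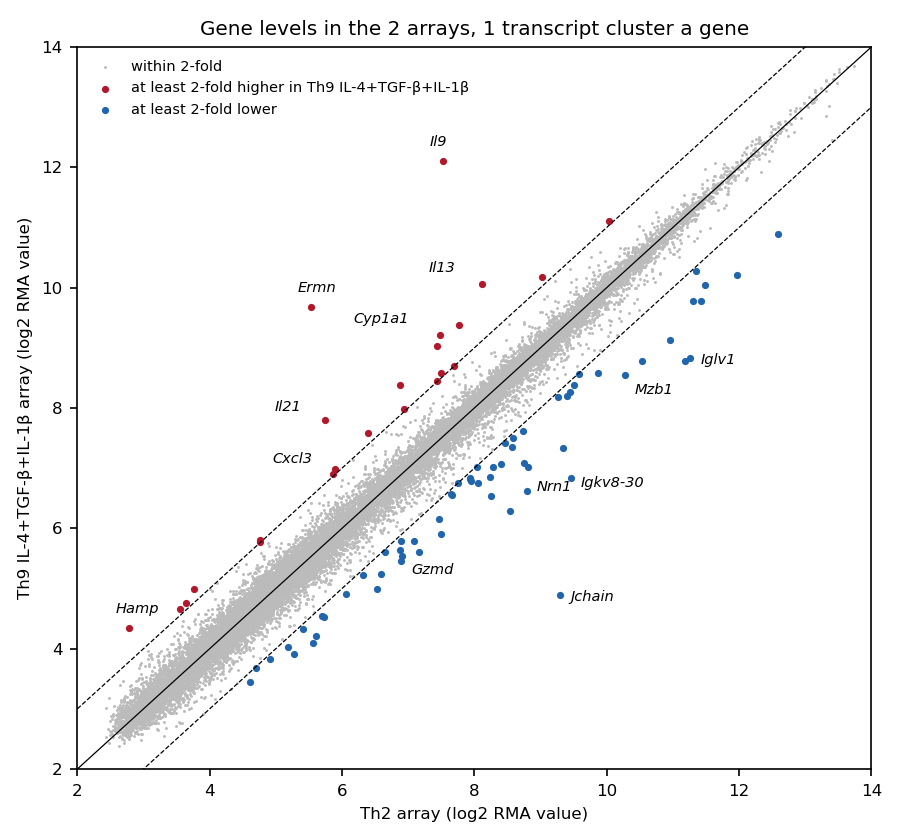
Gene levels in the Th2 array (x axis, log2 RMA value) and the combined Th9 array (y axis, log2 RMA value), 1 point for each of the 22180 genes. The solid line marks equal levels and the dashed lines 2-fold; 23 genes lie above the upper dashed line, with *Il9* the farthest, and 63 below the lower one, with *Jchain* the farthest.

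The promoters of 5 genes discussed below are shown here, because they are higher in the combined Th9 array and carry letters known as binding motifs of NF-κB, STAT6 or the aryl hydrocarbon receptor. The sequences are from RefSeq (GRCm38.p6), and each is the 250 bases before the annotated start, 5′ to 3′ on the strand of the gene. Capitals mark the matches. *Il9* (chr13:56482258-56482507, minus strand) has a STAT6-type match (TTCNNNNGAA) and a κB-type match (GGGANNNNCC on either strand), *Ermn* (chr2:58052865-58053114, minus strand), *Tnip3* (chr6:65590148-65590397, plus strand) and *Cxcl3* (chr5:90785851-90786100, plus strand) have κB-type matches, and *Ahrr* (chr13:74292332-74292581, minus strand) has a match to the core of the aryl hydrocarbon receptor element (TNGCGTG on either strand).
Il9: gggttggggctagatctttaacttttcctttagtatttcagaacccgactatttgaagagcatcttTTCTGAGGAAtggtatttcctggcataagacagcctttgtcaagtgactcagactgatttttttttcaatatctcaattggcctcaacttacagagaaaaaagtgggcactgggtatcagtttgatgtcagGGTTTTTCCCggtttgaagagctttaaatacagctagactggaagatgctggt
Ermn: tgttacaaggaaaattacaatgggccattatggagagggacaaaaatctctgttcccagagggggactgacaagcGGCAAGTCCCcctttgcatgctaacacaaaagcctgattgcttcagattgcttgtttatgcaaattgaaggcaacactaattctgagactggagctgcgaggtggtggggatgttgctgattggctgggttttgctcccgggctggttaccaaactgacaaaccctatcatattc
Tnip3: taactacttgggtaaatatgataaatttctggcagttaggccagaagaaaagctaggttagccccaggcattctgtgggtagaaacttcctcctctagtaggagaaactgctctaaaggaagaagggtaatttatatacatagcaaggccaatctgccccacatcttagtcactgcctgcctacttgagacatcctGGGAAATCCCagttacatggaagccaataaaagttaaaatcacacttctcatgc
Cxcl3: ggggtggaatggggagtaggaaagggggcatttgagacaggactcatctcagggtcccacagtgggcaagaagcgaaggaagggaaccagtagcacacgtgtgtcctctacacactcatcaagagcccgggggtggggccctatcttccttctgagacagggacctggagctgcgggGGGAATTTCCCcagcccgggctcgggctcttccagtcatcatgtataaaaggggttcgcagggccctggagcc
Ahrr: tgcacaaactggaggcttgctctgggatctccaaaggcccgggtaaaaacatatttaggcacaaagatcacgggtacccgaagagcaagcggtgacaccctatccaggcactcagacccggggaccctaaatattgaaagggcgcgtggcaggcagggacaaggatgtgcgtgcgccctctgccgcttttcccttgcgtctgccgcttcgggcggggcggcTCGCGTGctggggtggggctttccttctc
In *Il9* the matches begin 184 and 53 bases before the start, in *Tnip3* 54, in *Ermn* 175 and in *Ahrr* 29. In *Cxcl3* a pair of overlapping matches begins 73 and 72 bases before it. Promoter windows of 250 bases before to 50 bases after the start were found for 15 of the 20 genes with the highest differences. Of these 15 windows, 9 held a κB-type match, 2 a STAT6-type match and 0 the aryl hydrocarbon receptor core. The 17 windows of 15 of the 20 genes with the lowest differences held 3, 2 and 0. Over all 32851 windows the shares were 20.7%, 6.95% and 5.07%. A match is a description of the letters and does not by itself show binding. For *Il9*, the paper reports binding of the NF-κB protein RelA to the promoter in IL-4+IL-1β Th9 cells. It also reports that RelA raised the activity of an *Il9* promoter reporter in a transfected cell line that was not of T cells. In IL-4+IL-1β Th9 cells, the paper reports less IL-9 after knockdown of RelA and with an inhibitor of NF-κB.

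*Il9* (transcript cluster 17293013), the gene the Th9 cultures were made for, was at 12.11 in the combined Th9 array, 7.53 in Th2, 8.77 in classic Th9, 10.84 in IL-4+IL-1β Th9 and 4.49 in Th1 cells. It was highest in the combined Th9 array of all 5, and its difference from Th2 of 4.58, or 23.9-fold, was the highest of all genes. Split by way of the classic Th9 array, the difference was 1.24 between classic Th9 and Th2 and 3.33 between the combined and the classic Th9 array. By way of the IL-4+IL-1β Th9 array it was 3.31 and 1.27. The 2 parts add up to the same difference by construction, and all parts share arrays. In each path the step to the combined Th9 array changes 1 agent, IL-1β in the first and TGF-β in the second, while the step from Th2 also removes the added IL-2.

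*Ermn* (17385398), which encodes ermin, a cytoskeletal protein known from myelinating cells, had the next highest difference. It was at 9.69 in the combined Th9 array, 5.53 in Th2, 6.18 in classic Th9, 8.98 in IL-4+IL-1β Th9 and 10.26 in Th1 cells, a difference of 4.15 or 17.8-fold. The high arrays were thus both with IL-1β and the Th1 array, and Th2 was the lowest. *Il21* (17404888), a cytokine that follicular helper T cells give to B cells, was at 7.79 against 5.74 in Th2, 5.14 in classic Th9, 7.87 in IL-4+IL-1β Th9 and 7.23 in Th1 cells, a difference of 2.06. *Il13* (17262695), the type 2 cytokine that drives mucus production and airway reactivity, was at 10.06 against 8.11 in Th2, a difference of 1.95. It was at 11.07 in IL-4+IL-1β Th9, 6.37 in classic Th9 and 5.76 in Th1 cells. *Il13* was thus lower in classic Th9 than in Th2 cells, and higher in the combined Th9 array than in both.

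The 20 genes with the highest differences fell into different patterns over the arrays, as the plot of the genes with the highest and lowest differences shows. In all 20 the combined Th9 array lies above Th2 by the choice of the genes, so only the places of the other arrays are free. How many of all genes follow each pattern was not counted. *Nts*, which encodes the peptide neurotensin, was at 9.38 in the combined Th9 and 9.80 in the IL-4+IL-1β Th9 array, 7.77 in Th2, 7.71 in classic Th9 and 4.50 in Th1 cells. *Tnip3*, an inhibitor of NF-κB signaling that binds A20, was at 8.39 and 8.38 in the arrays with IL-1β, 6.87 in Th2, 6.80 in classic Th9 and 8.89 in Th1 cells. *Cxcl3*, a chemokine for neutrophils, was at 6.99 and 7.40 in the arrays with IL-1β, 5.90 in Th2, 4.68 in classic Th9 and 3.74 in Th1 cells. In *Il21*, *Nts*, *Tnip3* and *Cxcl3* both arrays with IL-1β lay above both Th2 and classic Th9, and classic Th9 lay below Th2. *Il1a*, the cytokine IL-1α, and *Ido2*, an enzyme of tryptophan breakdown, followed the same pattern, at differences of 1.06 and 1.04.

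A further group was higher in both arrays with TGF-β. *Cyp1a1*, a cytochrome P450 enzyme and the best known target of the aryl hydrocarbon receptor, was at 9.21 in the combined and 9.23 in the classic Th9 array, 7.48 in Th2, 7.40 in IL-4+IL-1β Th9 and 6.86 in Th1 cells. Its difference of 1.74 was the fifth highest, and the combined and classic Th9 arrays differed by 0.02. *Cyp2s1*, another cytochrome P450, was at 9.04 in the combined and 8.47 in the classic Th9 array, 7.43 in Th2, 7.67 in IL-4+IL-1β Th9 and 6.27 in Th1 cells. *Aqp3*, a channel for water and glycerol, was at 7.59 in the combined and 8.74 in the classic Th9 array, 6.39 in Th2, 5.88 in IL-4+IL-1β Th9 and 6.89 in Th1 cells, so that the combined Th9 array lay between Th2 and classic Th9. *Neurl3*, a ubiquitin ligase, *Antxr1*, a receptor for anthrax toxin, and *Pdpn*, the mucin-like protein podoplanin, were also highest in the arrays with TGF-β, with *Antxr1* at 8.70 against 7.70 in Th2. *Neurl3* and *Pdpn* differed by 1.06 and 0.96.

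*Maf*, a transcription factor that acts on *Il4*, *Il10* and *Il21*, was at 8.46 in the combined Th9 array, 7.43 in Th2, 8.20 in classic Th9, 7.83 in IL-4+IL-1β Th9 and 8.29 in Th1 cells. Th2 was the lowest array, and a second transcript cluster of *Maf* differed by 0.99, close to the 1.03 of the first. *Cysltr1*, a receptor for cysteinyl leukotrienes, *Lad1*, a filament protein of basement membranes, *Ifitm3*, an antiviral membrane protein, and the histone gene *H4c14* completed the 20, at differences of 1.05, 1.16, 1.09 and 1.02. The remaining 4 of the 23 genes at least 2-fold higher lay below the median of the array in both cultures. *Hamp*, which encodes hepcidin, was at 4.34 against 2.78, the mast cell protease gene *Mcpt1* differed by 1.23, *Sval1* was at 4.77 against 3.64 and *Mir29a* at 4.66 against 3.55. The olfactory receptor transcripts had a median of 3.35 in the combined Th9 and 3.41 in the Th2 array. Of the 23, 10 were highest of the 5 arrays in the combined Th9 culture, 6 in IL-4+IL-1β Th9, 4 in Th1 and 3 in classic Th9 cells. The choice of these genes favours the combined Th9 array here, and Th2 could not be the highest.

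**Figure D2:**
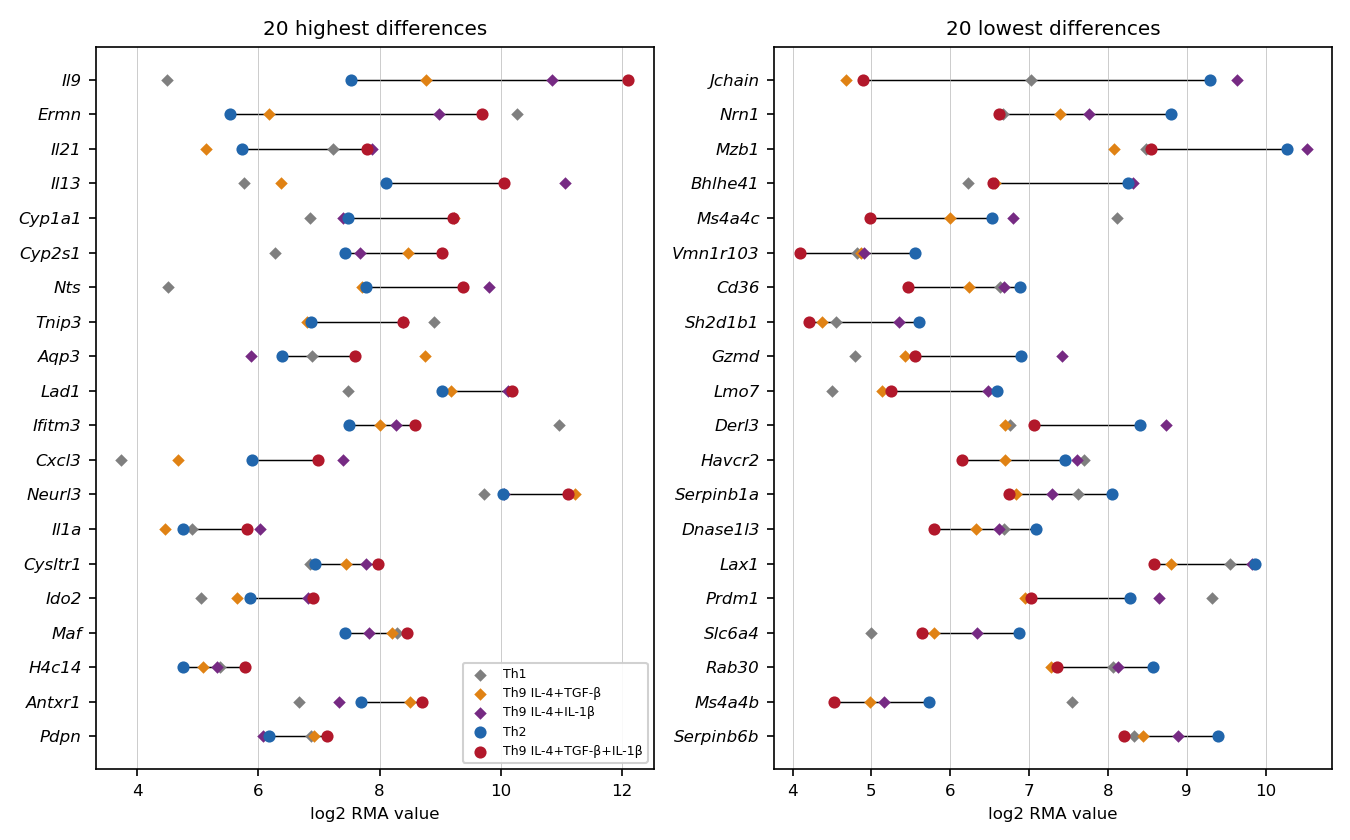
Levels (x axis, log2 RMA value) of the 20 genes with the highest (left) and the 20 with the lowest (right) differences between the combined Th9 and the Th2 array, with 1 point for each array. Circles joined by a line are the combined Th9 (red) and Th2 (blue) arrays, and diamonds the other 3; *Il9* spans 7.53 to 12.11 and *Jchain* 9.30 to 4.89.

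On the lower side, transcripts of antibody-secreting cells stood out by size and number. *Jchain* (17449447), the joining chain of secreted IgM and IgA, was at 4.89 in the combined Th9 array, 9.30 in Th2, 4.68 in classic Th9, 9.63 in IL-4+IL-1β Th9 and 7.03 in Th1 cells. Its difference of -4.41 was the lowest of all genes. Of the 31 immunoglobulin transcripts with 1 symbol, 28 were at least 2-fold lower, and they make up 28 of the 72 lower transcripts. Without immunoglobulin, B cell and plasma cell genes, 40 lower transcripts were counted. All 31 were below 0, from -2.63 for the light chain segment *Igkv8-30* to -0.45 for a cluster of *Ighm*, the heavy chain of IgM, with a median of -1.56. Their median level was 8.78 in the combined Th9, 10.95 in Th2, 8.52 in classic Th9, 11.25 in IL-4+IL-1β Th9 and 9.62 in Th1 cells. The segments resemble each other in sequence, so these are not 31 independent values. The T cells came from a *Rag1*-mutant strain and the antigen-presenting cells did not. In RNA of whole cultures, fewer cells of a type and less RNA per cell cannot be told apart.

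Of the 14 plasma cell markers measured, 9 were at least 1.5-fold lower and 0 higher, with a median difference of -0.80. Over all 22180 genes, 298 (1.34%) were at least 1.5-fold lower and 167 (0.753%) higher, with a median of 0.01. *Mzb1*, a chaperone of antibody-secreting cells, was at 8.54 in the combined Th9 array, 10.28 in Th2, 8.07 in classic Th9, 10.52 in IL-4+IL-1β Th9 and 8.48 in Th1 cells. *Derl3*, which helps clear misfolded proteins from the endoplasmic reticulum, was at 7.06 against 8.40 in Th2, and *Prdm1*, which encodes Blimp-1, a repressor needed by plasma cells and also made in effector T cells, at 7.03 against 8.28. The plasma cell regulator *Xbp1* was at 10.56 against 11.00, and *Sdc1*, the surface marker syndecan-1, at 6.28 against 6.48. *Tnfrsf17*, the receptor BCMA, was dim in all arrays, at 4.25 against 3.93. Among 13 B cell markers 3 were lower and 0 higher, with a median of -0.41. The CD20 gene *Ms4a1* was at 10.23 against 10.81, *Cd79a*, a signaling chain of the B cell receptor, at 11.93 against 12.33, and *Pax5*, the regulator of B cell identity, at 8.81 against 9.36. All 13 were below 0. The log2 of the summed linear levels was 13.74 in the combined Th9 and 14.18 in the Th2 array for the B cell list, and 13.17 and 13.89 for the plasma cell list.

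The labelled cell type was present in both arrays. Of 16 T cell identity genes 0 differed at least 1.5-fold, with a median of 0.09 and a range from -0.34 for *Cd6* to 0.31 for *Cd2*. *Cd4* was at 12.25 in the combined Th9 and 12.07 in the Th2 array, and *Cd3e* at 12.59 and 12.49. The plot of both sets over the arrays shows the immunoglobulin transcripts low in the arrays with TGF-β and high in Th2 and IL-4+IL-1β Th9, while the T cell genes are nearly level except for *Gata3*, which was at 6.85 in Th1 cells.

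**Figure D3:**
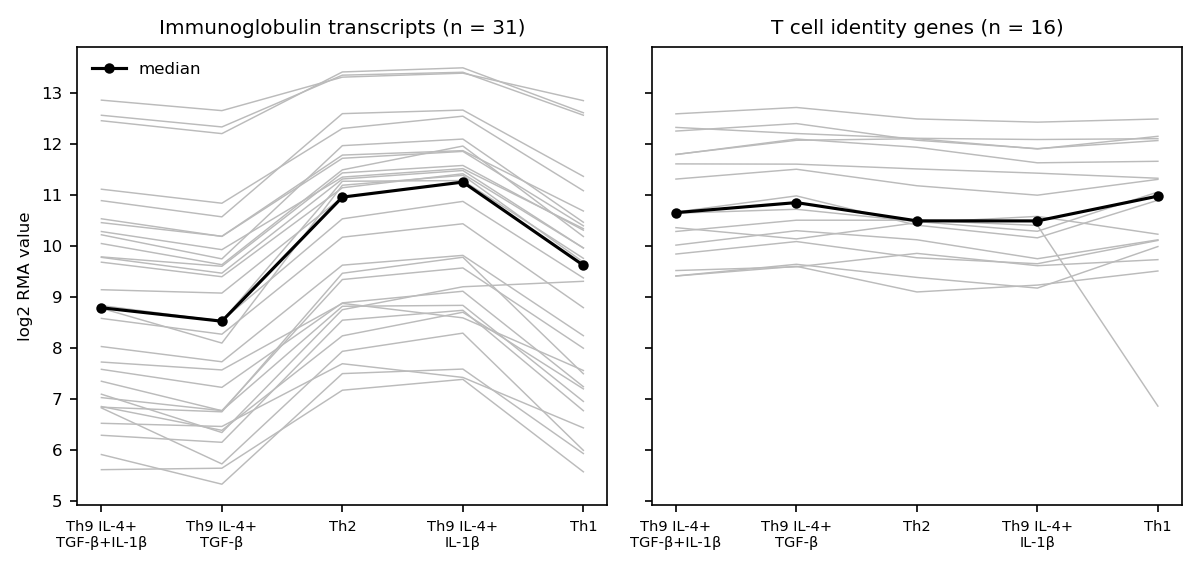
Levels (y axis, log2 RMA value) of the 31 immunoglobulin transcripts (left) and the 16 T cell identity genes (right) in each of the 5 arrays. Grey lines are transcripts and the black line their median, which for the immunoglobulin transcripts is 8.78 in the combined Th9 and 10.95 in the Th2 array.

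Some markers of further cells that a spleen preparation can hold were lower as well, in smaller numbers, and others went the other way. Of 26 myeloid and dendritic cell markers 3 were lower and 0 higher, with a median of -0.24. *Cybb*, a subunit of the phagocyte oxidase, was at 9.21 against 10.16, and *Clec7a*, the β-glucan receptor dectin-1, at 7.55 against 8.26. *Lyz2* was at 7.74 against 8.07 and *Itgax* at 7.07 against 7.11. Members that went the other way included *Cd14*, *Adgre1*, *Clec4e* and *S100a9*, by 0.57, 0.31, 0.16 and 0.13. Of 7 markers of NK and CD8 T cells 3 were lower and 0 higher. The NK receptor gene *Ncr1* was at 6.57 against 7.29, and *Eomes*, a transcription factor of these cells, at 7.93 against 8.77. The other lower member, *Klrb1c*, was at 3.82 against 4.91, below the median of the array in both, and *Cd8b1* differed by 0.08. Of 15 mast cell and basophil markers 3 were lower, among them the dim *Cma1*, and the dim *Mcpt1* was higher. The dim *Tpsb2*, *Mcpt2* and *Mcpt4* also lay above 0, at 0.56, 0.24 and 0.17. The proteases *Cpa3* and *Mcpt8* were at 8.18 against 9.27 and 6.16 against 7.05, whereas *Fcer1a*, which encodes a chain of the IgE receptor, was dim in both arrays, at 4.57 against 4.82. The summed levels of these lists were 13.78 against 14.10 for myeloid cells, 10.45 against 10.75 for NK and CD8 T cells and 9.59 against 10.22 for mast cells and basophils. Mast cells can also make *Il9* and *Il13*, which were higher. The part of other cells in the differences of single genes was not tested.

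Among the other genes with the lowest differences, *Nrn1* (17291874), which encodes neuritin, a protein of neurons and regulatory T cells, was at 6.62 in the combined Th9 array, 8.80 in Th2, 7.39 in classic Th9, 7.76 in IL-4+IL-1β Th9 and 6.67 in Th1 cells. Its difference of -2.17 was the sixth lowest. *Bhlhe41*, a transcriptional repressor of the circadian clock that is also among the Th2 genes listed below, was at 6.54 against 8.26 in Th2. It was at 6.56 in classic Th9, 8.32 in IL-4+IL-1β Th9 and 6.22 in Th1 cells. Among the cultures with IL-4, both arrays with TGF-β thus lay below both without it. The place of the combined Th9 array below Th2 is set by the choice of the gene. How many of all genes show this order was not counted. *Havcr2*, the inhibitory receptor TIM-3, was at 6.15 in the combined Th9 array, the lowest of the 5, with 7.46 in Th2, 6.70 in classic Th9, 7.61 in IL-4+IL-1β Th9 and 7.70 in Th1 cells. *Lax1*, an adaptor that restrains signaling of antigen receptors in T and B cells, was at 8.58 against 9.87 in Th2.

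*Gzmd*, which encodes granzyme D, was at 5.55 in the combined Th9 array, 6.90 in Th2, 5.43 in classic Th9, 7.42 in IL-4+IL-1β Th9 and 4.79 in Th1 cells. *Ms4a4c* and *Ms4a4b*, membrane proteins of the CD20 family, differed by -1.54 and -1.21 and were highest in Th1 cells. *Cd36*, a scavenger receptor for fatty acids, *Dnase1l3*, a secreted DNase of myeloid and dendritic cells, and *Sh2d1b1*, an adaptor of SLAM family receptors in NK cells, differed by -1.43, -1.29 and -1.39. The serine protease inhibitors *Serpinb1a* and *Serpinb6b* differed by -1.31 and -1.20, the serotonin transporter *Slc6a4* by -1.24, *Rab30*, a GTPase of the Golgi, by -1.21, *Lmo7* by -1.34 and the vomeronasal receptor *Vmn1r103* by -1.46. In the combined Th9 array *Vmn1r103*, *Sh2d1b1* and *Ms4a4b* were dim, at 4.09, 4.21 and 4.52, below the array median of 5.44.

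Further genes past 2-fold on the lower side did not all follow TGF-β. *Alpl*, an alkaline phosphatase, was at 8.27 in the combined Th9 array, 9.45 in Th2, 7.49 in classic Th9, 9.63 in IL-4+IL-1β Th9 and 7.84 in Th1 cells, low in both arrays with TGF-β. *Nrgn*, the calmodulin-binding protein neurogranin, was at 6.84 against 7.93 in Th2, with 9.36 in classic Th9, 6.26 in IL-4+IL-1β Th9 and 4.88 in Th1 cells, so that it was highest in classic Th9 and lower in the arrays with IL-1β. *F2rl2*, a thrombin receptor, had the same high arrays, at 7.50 against 8.59 in Th2, with 8.80 in classic Th9, 7.52 in IL-4+IL-1β Th9 and 8.15 in Th1 cells. *Hgf*, the hepatocyte growth factor, was at 5.22 against 6.31, *Car2*, a carbonic anhydrase, at 6.58 against 7.65, *St3gal6*, a sialyltransferase, at 7.62 against 8.73, and *Cd7*, a surface protein of T and NK cells, differed by -1.15. Of the 72 lower transcripts, the lowest of the 5 arrays was classic Th9 for 34, the combined Th9 for 24 and Th1 for 14. Th2 could not be the lowest, by the choice of these transcripts, which also favours the combined Th9 array.

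Gene lists of T helper cells and of the pathways of the added cytokines were then counted at 1.5-fold. Of 515 different genes measured in 30 lists, 24 were higher and 39 lower. Over all 22180 genes, 167 (0.753%) were higher and 298 (1.34%) lower, and the counts of each list below stand beside these shares. The plot of all list members orders the lists by their median, from the aryl hydrocarbon receptor genes at 0.42 to the plasma cell markers at -0.80.

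**Figure D4:**
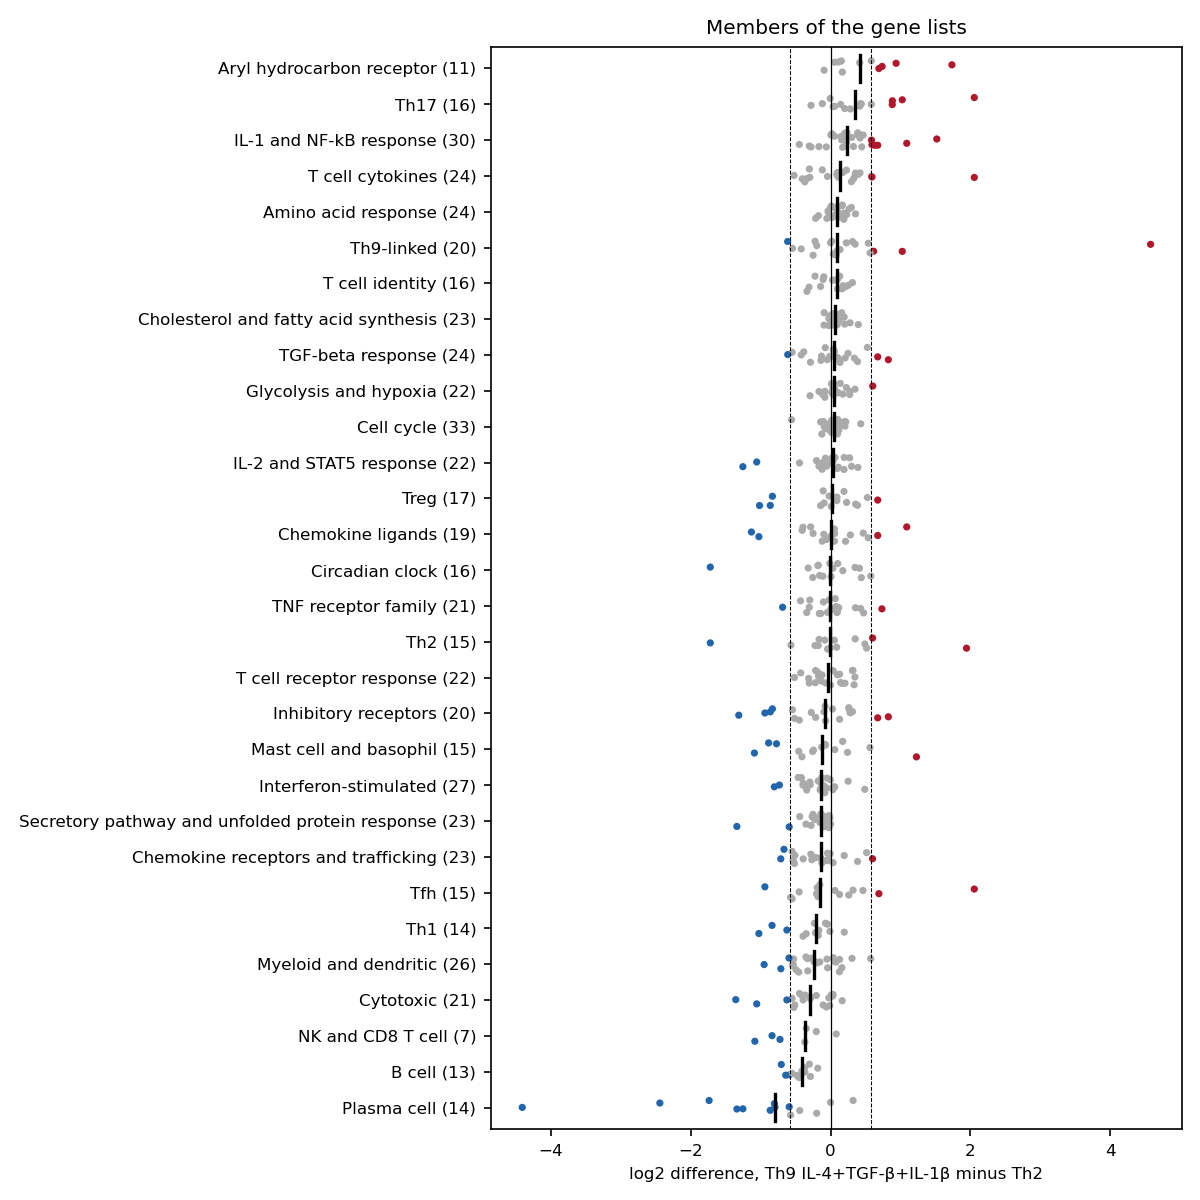
Differences between the combined Th9 and the Th2 array (x axis, log2) of the members of the 30 gene lists, 1 point a gene, with the number of measured genes in brackets. Black bars are list medians, dashed lines mark 1.5-fold, and red and blue points lie beyond them; the aryl hydrocarbon receptor list is highest with a median of 0.42 and the plasma cell list lowest with -0.80.

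Of 20 genes linked to Th9 cells 3 were higher and 1 lower. Their median was 0.09. Beside *Il9* and *Maf*, *Batf*, an AP-1 factor needed for IL-9 expression, was higher at 9.60 against 8.99 in Th2, with 8.84 in classic Th9, 9.47 in IL-4+IL-1β Th9 and 8.54 in Th1 cells. *Irf8* was lower, at 9.07 against 9.68, while its second cluster differed by -0.14. Other members lay within 1.5-fold on either side. *Erg*, an ETS family factor, differed by 0.57, *Etv5*, of the same family, by -0.54 with a second cluster at 0.05, and *Smad3* by -0.42. *Irf4* was at 11.83 in both arrays, *Spi1*, which encodes PU.1, at 6.99 and 7.19, and *Stat6* at 10.63 and 10.40.

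Of 15 Th2 genes 2 were higher and 1, *Bhlhe41*, was lower, with a median of -0.00. *Il4* was at 6.97 and 6.98, *Il4ra* at 11.86 and 11.95, and *Gata3* at 10.28 and 10.50, with a second, dimmer cluster of *Gata3* going the other way by 0.39. The higher members were *Il13* and *Ccr8*, a chemokine receptor of Th2 and regulatory T cells, which was at 10.14 against 9.54, and at 10.77 in classic Th9 cells. *Il5*, the eosinophil growth factor, was at 5.61 against 5.12 and *Il17rb*, a receptor for IL-25, at 7.23 against 7.79. The Th2 cytokine genes thus did not share a difference, with *Il13* 1.95 higher, *Il5* 0.49 and *Il4* at -0.00.

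The receptors and targets of TGF-β showed few members past 1.5-fold. Of 24 genes 2 were higher and 1 lower, and the median was 0.05. *Nt5e*, the ectoenzyme CD73, was at 7.57 in the combined Th9 array, 6.74 in Th2, 9.05 in classic Th9, 6.50 in IL-4+IL-1β Th9 and 7.04 in Th1 cells. *Ctla4*, an inhibitory receptor, was at 9.43 against 8.75, with 9.77 in classic Th9 cells. *Itgae*, the integrin CD103, was at 7.27 against 6.88, with 8.40 in classic Th9, and *Foxp3*, the regulator of Treg cells, at 8.39 against 7.86, with 8.78. In all 4 the combined Th9 array lay above Th2 and below classic Th9. *Smad7*, the inhibitor of the pathway, was at 7.58 and 7.63, the receptor gene *Tgfbr1* at 8.01 and 8.02 (8.65 in classic Th9), and *Tgfbr2* at 8.81 and 9.19. *Rgs16*, a regulator of G protein signaling, was the lower member, at 7.23 against 7.84.

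Of 30 genes of the IL-1 and NF-κB response 6 were higher and 0 lower, and the median was 0.23. Beside *Tnip3* and *Cxcl3* these were *Cxcl1*, a neutrophil chemokine at 5.76 against 5.08, *Zc3h12a*, an RNase that degrades cytokine mRNA at 8.70 against 8.07, *Csf2*, which encodes GM-CSF, at 5.13 against 4.54, and *Bcl3*, a nuclear IκB protein at 9.60 against 9.02. A second cluster of *Csf2* differed by -0.03, and *Csf2* was at 7.53 in the IL-4+IL-1β Th9 array. The inhibitor *Nfkbia* was at 10.66 against 10.27, *Tnfaip3*, which encodes A20, at 9.49 against 9.19, and the decoy receptor *Il1r2* at 8.31 against 7.86. The signaling receptor *Il1r1* was at 7.43 against 7.71. Most of the other members lay above 0 and within 1.5-fold.

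The 11 genes of the aryl hydrocarbon receptor, a ligand-activated transcription factor, had the highest median of the lists, 0.42, with 4 higher and 0 lower. On log2(value + 16), which damps dim signals, the median was 0.17. Apart from *Cyp1a1*, *Cyp1b1* was at 7.39 in the combined Th9 array, 6.46 in Th2, 7.93 in classic Th9, 6.72 in IL-4+IL-1β Th9 and 8.33 in Th1 cells. *Ahrr*, the repressor of the receptor, was at 7.56 against 6.82, with 7.90 in classic Th9, 6.96 in IL-4+IL-1β Th9 and 6.78 in Th1 cells. *Ido1*, an enzyme of tryptophan breakdown, was the other higher member, at 7.54 against 6.85, but was lowest in classic Th9 at 6.14. The receptor gene *Ahr* was at 8.88 against 8.46 and *Tiparp*, another target, at 9.20 against 9.04. The promoter windows of 7 of the 11 genes were found, and the receptor core was in 1 of them, that of *Ahrr* shown above.

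Of 16 Th17 genes 4 were higher and 0 lower, and the median was 0.35. These were *Il21*, *Maf* and the membrane proteins *Tmem176a* and *Tmem176b*, which were at 9.40 against 8.52 and 10.10 against 9.22. The defining cytokines were dim in all arrays. *Il17a* was at 4.56 and 4.68 and *Il17f* at 5.36 and 5.22. Of 17 Treg genes 1, *Ctla4*, was higher and 3 were lower, with a median of 0.03. The lower members were the semaphorin receptor *Nrp1*, at 7.02 against 8.04, the ectoenzyme *Entpd1*, at 6.50 against 7.37, and the inhibitory receptor *Tigit*, at 7.38 against 8.21.

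Th1 and cytotoxic genes had members past 1.5-fold on the lower side only. Of 14 Th1 genes 3 were lower, with a median of -0.21, and of 21 cytotoxic genes 3 were lower, with a median of -0.29. *Prf1*, the pore-forming protein of killer cells, was at 7.41 against 8.47 in Th2, with 7.48 in classic Th9, 8.33 in IL-4+IL-1β Th9 and 8.54 in Th1 cells. *Ccl5*, a chemokine of effector T cells, was at 8.56 against 9.59, with 8.52, 9.39 and 10.07 in the same order, and *Nkg7*, a protein of cytotoxic granules, at 9.44 against 10.07. *Gzmb* was at 11.37 against 11.81. The Th1 regulator *Tbx21* was at 7.52 and 7.73 and *Ifng* at 6.74 and 6.78, while both were at 10.90 and 11.11 in Th1 cells. *Eomes*, the other Th1 gene at least 1.5-fold lower, is also in the NK and CD8 T cell list. In that list *Klrd1* and *Cd8b1* differed by -0.20 and 0.08. NK cells also express *Prf1*, *Ccl5* and *Nkg7*, and some of their markers were lower in the same array, as given above. The part of NK cells in these differences was not tested.

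Of 20 inhibitory receptors and related genes 4 were lower and 2 higher. *Havcr2*, *Tox*, a transcription factor of exhausted T cells at 6.26 against 7.19, *Entpd1* and *Tigit* were lower, and *Nt5e* and *Ctla4* higher, while *Pdcd1*, which encodes PD-1, was at 7.89 and 7.76 and *Lag3* at 8.03 and 8.30. Among 19 chemokine ligands *Cxcl1* and *Cxcl3* were higher and *Ccl3* and *Ccl5* lower. *Ccl3*, the chemokine MIP-1α, was at 8.38 in the combined Th9 array, 9.51 in Th2, 7.98 in classic Th9, 9.99 in IL-4+IL-1β Th9 and 9.97 in Th1 cells. The chemokines for CCR4 were at 8.86 against 8.32 for *Ccl17* and 11.56 against 11.81 for *Ccl22*. Among 23 trafficking genes *Ccr8* was higher, and the integrin *Itga4* at 7.90 against 8.61 and the oxysterol receptor *Gpr183* at 9.74 against 10.41 were lower.

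The Th2 medium alone of the 2 held added IL-2, which signals through STAT5. Of 22 genes of the IL-2 and STAT5 response 0 were higher and 2, *Prdm1* and *Prf1*, were lower, with a median of 0.03. The receptor chain gene *Il2ra* was at 12.96 in the combined Th9 and 12.76 in the Th2 array. *Prdm1* and *Prf1* were at 8.65 and 8.33 in the IL-4+IL-1β Th9 array, whose medium held IL-1β and no added IL-2. The part of added IL-2 in these differences was not tested.

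Of 15 genes of follicular helper T cells, *Il21* and *Tox2* were higher and *Tox* was lower, with a median of -0.15. *Bcl6*, their regulator, was at 8.07 and 8.27. In the TNF receptor family *Tnfrsf25*, the receptor DR3, was higher at 7.76 against 7.03, and *Tnfsf13b*, the gene of BAFF, a survival factor of B cells, was lower at 8.04 against 8.73. Of 24 T cell cytokine genes 2, *Il21* and *Csf2*, were higher and 0 lower.

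Lists of general cell functions held few or no members past 1.5-fold. There were 0 in either direction among 33 cell cycle genes, 23 of cholesterol and fatty acid synthesis, 24 of the amino acid response and 22 of the T cell receptor response, with medians of 0.04, 0.06, 0.09 and -0.03. Among 22 genes of glycolysis and hypoxia the lactate transporter *Slc16a3* was higher, at 8.64 against 8.03. Among 16 circadian clock genes *Bhlhe41* was lower. Of 27 interferon-stimulated genes 2 were lower, the exonuclease *Isg20*, which differed by -0.80, and the GTPase *Gbp7* at 8.89 against 9.63. Of 23 genes of the secretory pathway and unfolded protein response 2 were lower, *Derl3* and *Fkbp11*, both of which are also plasma cell markers, and the chaperone *Hspa5* was at 9.78 and 9.92.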

How the data were processed

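RNA of 3-day cultures was measured with 1 Affymetrix Mouse Gene 2.0 ST array for each of 5 conditions. The authors used RMA (Affymetrix Expression Console, version not given in the sources used here), which corrects background, normalizes the arrays together and gives 1 value for each transcript cluster, and deposited the values on a log2 scale. RMA narrows differences of dim probes. These log2 values were used as deposited, and raw intensities were not analysed. Sample labels gave the conditions, and the Methods the doses.

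Clusters with 1 gene symbol in the platform annotation were used, 23521 of 41345, and 1820 with several symbols and 16004 unnamed here were left out. Of the 23521, 23328 were found in the RefSeq table. For a gene with several clusters, the cluster brightest on average over the 5 arrays was kept. Differences of log2 values were counted at 2-fold, and at 1.5-fold for gene lists. With 1 array a side no test was possible, and the number of arrays limits the precision. Genes named are *Il9*, the 20 highest and the 20 lowest differences without gene models, antigen receptor segments, small RNA genes and genes whose higher array lay below the median of that array, the members of each list with the largest differences, and defining markers. Other list members, and other genes past 2-fold, were named after their values were seen. The comparison, the lists and the thresholds were chosen with earlier results of these data known. Some list members were not analysed here. As alternatives, arrays were centred on their median or on their 75th percentile or quantile normalized again, and values taken as log2(value + 16), with other sets of transcripts, other thresholds, means over the clusters of a gene, or list means.

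Promoters came from the RefSeq table of 300-base windows, matched by symbol, and motifs were searched on both strands. The counting was tested on simulated data. Python 3.11.15 was used with numpy 2.4.6, pandas 2.3.3 and matplotlib 3.10.9.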

Additional observations from a re-analysis of the deposited data

How the results depend on the processing

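The number of transcripts at least 2-fold higher or lower depended on what was counted. The 23 higher transcripts became 12 on log2(value + 16), 189 over all clusters including those without a symbol, 178 at 1.5-fold and 7 at 3-fold. The 72 lower transcripts became 344 over all clusters, 40 without immunoglobulin, B cell and plasma cell genes, 319 at 1.5-fold and 19 at 3-fold. At 2-fold, 8 list members were higher and 14 lower, in place of 24 and 39. Centring on the array median, centring on its 75th percentile and a second quantile normalization left both counts within 1.5 times, and under each setting the median of all genes stayed between -0.00 and 0.02. The difference of *Il9* was between 4.46 and 4.59 in all settings run. Counted once for each named gene and alternative setting, 1166 differences moved by less than the spread of dim signals and 19 by more. The 19 were all on log2(value + 16) except those of *Etv5*, *Gata3* and *Csf2* as means over clusters. Many of the 1166 were bound to stay small. Each centring shifts all genes by the same small amount, and means over clusters leave genes with 1 cluster unchanged. On log2(value + 16) *Ermn* was at 3.75 and *Jchain* at -3.82. Some genes named among the highest and lowest differences fell below 2-fold there. Among them were *Il1a* at 0.75, *H4c14* at 0.72, *Vmn1r103* at -0.93, *Sh2d1b1* at -0.90 and *Ms4a4b* at -0.83. The mean over both clusters turned *Gata3* from -0.22 to 0.08. The medians of the Th2, chemokine ligand, Treg, follicular helper, IL-2 and STAT5, TNF receptor and circadian lists lay near 0 and changed sign under at least 1 setting. No paired analysis was possible because each condition has 1 array. Depth has no meaning for arrays, and dim signals limit what genes below the median of the array can show.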

Other observations

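*Il9r*, which encodes the receptor chain for IL-9, was at 6.56 in the combined Th9 array, 7.32 in Th2, 6.92 in classic Th9, 6.42 in IL-4+IL-1β Th9 and 7.70 in Th1 cells, a difference of -0.76 beside that of *Il9* in the other direction. *Il5ra*, the receptor chain for IL-5, was at 7.32 against 8.27 in Th2. The leukotriene receptor *Cysltr2* was at 8.77 against 7.96, on the same side as *Cysltr1*. *Sgk1*, a salt-sensing kinase, was at 7.71 against 6.92, with 7.77 in classic Th9, 7.12 in IL-4+IL-1β Th9 and 6.17 in Th1 cells, and *Bcl2l11*, which encodes the cell death protein BIM, at 7.88 against 8.65, with 7.73 in classic Th9 and 8.70 in IL-4+IL-1β Th9. These genes were chosen after their values were seen.

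A few gene families were also looked at after values of their members were seen. Of 20 *Ms4a* genes 4 were at least 2-fold lower and 0 higher, with a median of -0.18. Over all 23521 transcript clusters, 72 (0.306%) were lower and 23 (0.0978%) higher at that threshold. The 4 were *Ms4a4c*, *Ms4a4b*, *Ms4a6c* and *Ms4a4a*. In the combined Th9 array they were at 4.99, 4.52, 5.80 and 4.32, beside an array median of 5.44. Of 26 *Serpinb* transcript clusters 2 were lower and 0 higher, with a median of -0.09. Of 9 granzyme genes 1, *Gzmd*, was lower. The neighbouring segments of these families can share probes of like sequence, and this was not tested.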
